A study of Mus musculus with 12 samples.

Results

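The Wnt ligands described here are 9 genes of the Wnt family of secreted glycoproteins: Wnt2, Wnt2b, Wnt3, Wnt4, Wnt5a, Wnt5b, Wnt6, Wnt7a and Wnt7b. They were taken by gene symbol, with every probe annotated to 1 of them, which gave 16 of 34885 probes with a single symbol and 9 of 19057 genes. Their RNA was measured on Illumina bead arrays in the eye primordia of mouse embryos of stage E10.5 (embryonic day) on a mixed C57BL6 and FVB background. Frozen sections of 10 µm were laser microdissected. The pieces taken were distal optic vesicle, from which the retina forms, and the overlying surface ectoderm, from which the lens forms. Embryos were wild type (WT) or carried a deletion of Bmp4 in the optic vesicle (KO), which gave 4 groups of 3 arrays: WT optic vesicle, KO optic vesicle, WT surface ectoderm and KO surface ectoderm. The labels give neither the Cre line nor its promoter. Per the design text 3 embryos per genotype were used and their RNA was pooled, and the labels leave unclear if each array stands for its own embryo or for another aliquot of pooled RNA. The p-values therefore measure the spread between these arrays, which may be technical.

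Wnt ligands bind Frizzled receptors together with Lrp5 or Lrp6 and stabilise beta-catenin, which acts with TCF and LEF factors on target genes such as Axin2. Some of them, Wnt5a in particular, also act through Ror2 and Ryk without beta-catenin. In the early eye, beta-catenin signalling in the head ectoderm is known to hold back lens formation outside the placode, and in the optic vesicle it is known to be needed for the pigment epithelium. Bmp4 of the optic vesicle is known to be required for lens induction.

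The ligands Wnt6, Wnt2 and Wnt2b, which differ in their pattern over the groups, are shown first through the sequence around 1 annotated start of their genes, from 250 bases before to 50 bases after it (RefSeq, GRCm38.p6). Wnt6 lay at chr1:74771642-74771941 on the plus strand, Wnt2 at chr6:18030396-18030695 on the minus strand and Wnt2b at chr3:104961660-104961959 on the minus strand. Each is written 5′ to 3′, and capitals mark matches to the motifs named after the sequences.
Wnt6: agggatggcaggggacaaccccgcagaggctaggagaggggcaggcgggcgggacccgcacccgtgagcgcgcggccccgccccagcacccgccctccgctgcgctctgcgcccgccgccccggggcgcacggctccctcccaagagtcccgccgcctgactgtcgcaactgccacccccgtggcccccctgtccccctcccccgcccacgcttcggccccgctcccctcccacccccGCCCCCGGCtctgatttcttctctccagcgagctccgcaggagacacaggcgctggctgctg
Wnt2: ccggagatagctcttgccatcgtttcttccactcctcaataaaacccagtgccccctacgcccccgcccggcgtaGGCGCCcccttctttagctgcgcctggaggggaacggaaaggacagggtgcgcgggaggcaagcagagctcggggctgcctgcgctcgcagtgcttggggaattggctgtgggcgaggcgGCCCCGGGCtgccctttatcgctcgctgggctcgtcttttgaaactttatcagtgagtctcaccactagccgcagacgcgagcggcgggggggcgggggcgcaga
Wnt2b: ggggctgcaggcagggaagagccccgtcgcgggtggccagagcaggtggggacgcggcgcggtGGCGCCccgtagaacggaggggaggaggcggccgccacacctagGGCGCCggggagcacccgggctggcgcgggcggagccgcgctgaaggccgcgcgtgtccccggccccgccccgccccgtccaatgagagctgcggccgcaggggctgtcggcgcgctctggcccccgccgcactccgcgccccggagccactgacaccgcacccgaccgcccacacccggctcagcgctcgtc

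These windows were searched on both strands for CTTTGA, the core letters of the TCF and LEF site, for GGCGCC, a GC-rich SMAD site, for GCCNNNGGC, the AP-2 site, and for TAATCC, the OTX site. The Wnt6 window held 1 AP-2 match, starting at base -12 from the annotated start used. The starts used for Wnt6 and Wnt2 lie inside the spans of these genes, chr1:74754342-74785322 and chr6:17985474-18032772, and not at their ends. The Wnt2 window held 1 SMAD match starting at base -175 and 1 AP-2 match at base -55, counted from the start, and the Wnt2b window held SMAD matches at bases -187 and -143. Among the ligands not printed, AP-2 letters were also in windows of Wnt3, Wnt4 and Wnt5b, and SMAD letters in those of Wnt4 and Wnt7a. A Wnt5b window held CTTTGA, starting at base -71. No window was given for Wnt5a or Wnt7b. Among 32851 such windows of all genes, 16.6% held the AP-2 letters, 11.9% the SMAD letters, 16% CTTTGA and 7.06% TAATCC, and CTTTGA and TAATCC were in none of the 3 windows printed. GC content was 76.7% for Wnt6, 65.7% for Wnt2 and 79.7% for Wnt2b, against a median of 52.7% over all windows, so GC-rich letters are met more often here by composition. A match says only that the letters are present.

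Values are normalised log2 intensities, and a probe is called detected on an array where its detection p, set by how many negative control probes match its brightness, is below 0.05. A probe was kept if it was detected on at least 3 of the 12 arrays. This kept 11 of the 16 probes and 7 of the 9 genes. Wnt3 and Wnt7a fell below the filter, with 1 and 2 arrays detected. The used probe of Wnt6 passed it through the 3 KO surface ectoderm arrays alone, Wnt4 through 4 arrays and Wnt2b through 5, of which 3 were KO optic vesicle arrays. Where a gene had several kept probes, the brightest over all arrays was used and the others are given beside it. Probes of different genes are not set against each other, since brightness depends on the probe.

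Across the 12 arrays 45.0% to 46.7% of 45281 probes were detected, the median raw intensity was 85.7 to 123, and the correlation across genes between replicates was 0.929 to 0.963. A value rested on a median of 42 beads. Bmp4, the deleted gene, fell in KO optic vesicle from a mean of 8.26 to 4.59 (limma adjusted p = 1e-04), with 1 of 3 KO arrays detected, and its second probe stood at -1.12 without passing (limma adjusted p = 0.46). In surface ectoderm Bmp4 differed by -1.10 (limma adjusted p = 0.14) and by 1.23 on the second probe (limma adjusted p = 0.24), and these signs are opposite. On the second probe KO ectoderm replicate 1 stood apart, at 7.11 against 4.78 and 4.58 in replicates 2 and 3, and the WT arrays were not detected, at 4.23 to 4.31. The labels do not tell if the probes fall inside the deleted stretch. Of 9 epidermal markers 6, Trp63 and Tfap2b among them, were on no WT vesicle array. Cdh1 (mean 8.09), Krt18 (6.41) and Epcam (5.5) were on all 3 WT vesicle arrays. WT ectoderm arrays held all 9.

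**Figure D1:**
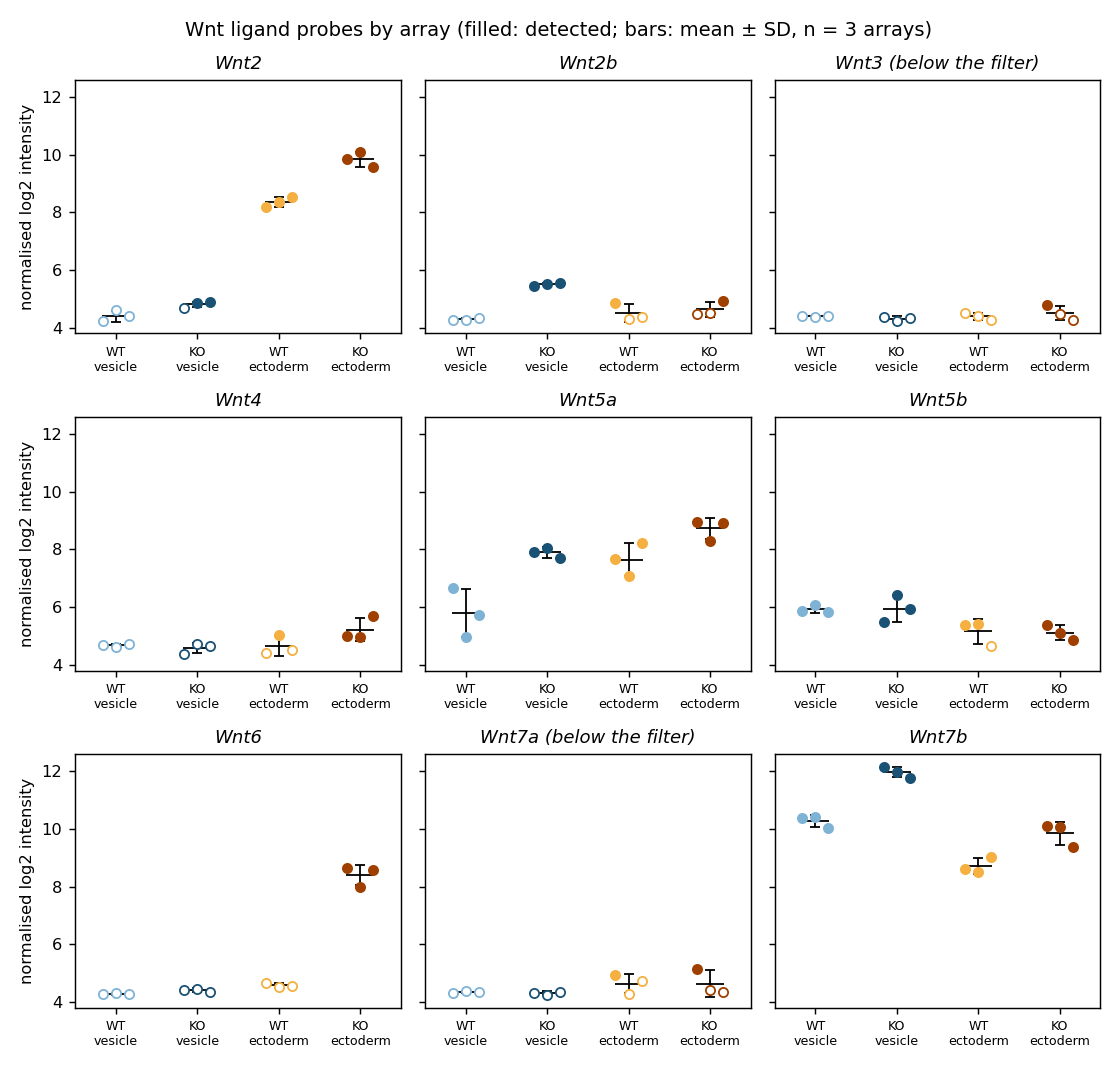
Normalised log2 intensity (vertical axis) of the used probe of each Wnt ligand in the 12 arrays, by group (horizontal axis); filled points are detected, open points are not, and bars give mean ± SD of 3 arrays. Wnt6 is detected on the 3 KO surface ectoderm arrays alone, Wnt2b stands highest in KO optic vesicle, Wnt2 is high in both ectoderm groups, and Wnt7b is detected on all 12 arrays.

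The ligands fell into several patterns over the groups. Wnt2 was higher in surface ectoderm, at 8.18 to 10.1, than in optic vesicle, at 4.22 to 4.89. The used probe of Wnt6 was detected in KO surface ectoderm alone and on no WT ectoderm array. Wnt7b was brightest in optic vesicle and rose in KO in both tissues, 3.23-fold in vesicle and 2.19-fold in ectoderm. Wnt5a rose 4.29-fold in KO optic vesicle, a call that was lost when any 1 of 4 vesicle arrays was left out, and Wnt2b rose at least 1.68-fold there. No ligand passed the test as lower in KO in either tissue.

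The first question was how ligand RNA in the prospective retina differed once Bmp4 was deleted. Of the 9 ligands, Wnt2b, Wnt5a and Wnt7b passed with higher levels in KO optic vesicle, 4 did not pass and 2 were not tested because they lay below the filter. Over all genes tested 1.8% passed (215 of 11924), 124 of them higher and 91 lower. The median log2 difference of the 7 tested ligands was 0.41, beside -0.02 over all genes. The WT and KO vesicle arrays did not overlap for 5 of the 7 ligands and for 21.2% of all genes.

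Wnt7b, a beta-catenin ligand of the forebrain and of branching epithelia, read 10.39, 10.41 and 10.05 in WT vesicle. In KO vesicle it read 12.15, 11.99 and 11.78. The groups did not overlap, and each KO array lay above each WT array. The log2 difference was 1.69 ± 0.20 (SE, n = 3 arrays per group), with limma adjusted p = 0.00021. Within slide 1 the difference was 1.61 and within slide 2 it was 1.74. A second, dimmer probe of Wnt7b was not detected on any WT vesicle array and read 4.92, 4.92 and 5.84 in KO vesicle, where all 3 arrays were detected. Its difference of 0.63 had the same sign and did not pass (limma adjusted p = 0.38).

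Wnt5a, the ligand best known for signalling without beta-catenin, was detected on all 12 arrays. It read 6.67, 4.98 and 5.74 in WT vesicle, the widest spread of any ligand in any group. The KO vesicle arrays read 7.93, 8.06 and 7.70, close together and all above the WT arrays. The log2 difference was 2.10 ± 0.41 (SE, n = 3 per group), with limma adjusted p = 0.016. Within the slides it was 1.39 and 2.45. The call depended on single arrays: without WT vesicle replicate 2 it was 1.69 (limma adjusted p = 0.069), and it was also lost without WT replicate 3 (limma adjusted p = 0.058), KO replicate 1 (limma adjusted p = 0.059) or KO replicate 2 (limma adjusted p = 0.067). The dimmer kept probe read 5.10, 4.54 and 4.42 in WT and 5.72, 5.93 and 6.68 in KO vesicle, with no overlap. It differed by 1.43, which did not pass (limma adjusted p = 0.13). The remaining Wnt5a probe was detected on no array.

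Wnt2b, a ligand of the eye margin and of the dorsal neural tube, was not detected in WT vesicle, where it read 4.26, 4.26 and 4.34. In KO vesicle it was detected on all 3 arrays, at 5.46, 5.52 and 5.54. These were dim but tightly grouped values, and all lay above the 9 arrays of the other groups. The fitted log2 difference was 1.22 ± 0.21 (SE, n = 3 per group), with limma adjusted p = 0.0068. Wnt2b was kept only because its 3 KO vesicle arrays were detected, so its place in the counts above follows from the filter. In a fit of all 19057 genes without the filter, in which 0.861% passed, Wnt2b passed as well (1.22, limma adjusted p = 0.0034). Because the WT level was below detection, the rise is given as a bound of at least 1.68-fold, which sets the KO mean against a WT mean in which each array counts with its own value or, if higher, with the dimmest detected probe of that array. Such a bound allows for the background level alone and not for the spread between arrays or the choice of processing. Within the slides the difference was 1.25 and 1.20. A second Wnt2b probe was detected on no array.

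The remaining ligands of the vesicle did not pass. Wnt2 read 4.22, 4.60 and 4.39 in WT and 4.70, 4.84 and 4.89 in KO vesicle; the groups did not overlap, but 0 of 3 WT and 2 of 3 KO arrays were detected, and the difference of 0.41 did not pass (limma adjusted p = 0.70). Wnt5b, a close relative of Wnt5a, read 5.84 to 6.08 in WT and 5.49 to 6.43 in KO, a difference of 0.02 with a 95% interval of -0.72 to 0.77. Wnt4, a ligand of kidney and gonad development, and Wnt6 were below detection on all 6 vesicle arrays with their used probes. In a fit of all 19057 genes without the filter, in which 0.861% of genes passed, Wnt3 differed by -0.08 (95% interval -0.31 to 0.15) and Wnt7a by -0.05 (-0.45 to 0.36), both undetected on every vesicle array.

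Markers of other cell types in the vesicle arrays are given beside these rises. Of 5 measured pigment epithelium markers 4 rose in KO vesicle, Pmel, Tyrp1, Dct and Otx2, and their sum was 10.08 to 10.24 (log2) in WT and 12.19 to 12.22 in KO. Of 5 erythroid markers 4 rose, with sums of 10.96 to 11.05 in WT and 12.19 to 12.31 in KO. Of 9 epidermal markers Krt18 rose by 2.04 and 8 did not pass, while 4 of the 9 had an unadjusted limma p below 0.05 (median 0.78). In WT vesicle 6 of the 9 were on no array, and in KO vesicle 1, Trp63. Tfap2b was on 0 of 3 WT and 3 of 3 KO vesicle arrays. The epidermal sum was 8.94 to 9.27 in WT, 10.06 to 10.3 in KO and 12.89 to 13.22 in KO ectoderm. Of 7 mesenchyme markers Alx4 rose by 2.97 and 6 did not pass, with sums of 7.64 to 8.09 in WT and 8.49 to 9.37 in KO. None of 6 endothelial markers passed (0 by limma and 0 at an unadjusted p below 0.05). Wnt2, at 9.56 to 10.1 in KO ectoderm, stood at 4.70 to 4.89 in KO vesicle, with 2 of 3 arrays detected against 0 of 3 in WT vesicle. Wnt6, at 8.0 to 8.64 in KO ectoderm, was detected on no vesicle array with its used probe. Wnt7b and Wnt2b were higher in KO vesicle than in any other group. The part of the other cell types in the rise of Wnt7b, Wnt2b and Wnt5a was not tested. In such tissue pieces, more cells of a type and more RNA per cell cannot be told apart.

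The second question was how the ligands differed in the ectoderm over the KO vesicle. Of the 9 ligands Wnt2, Wnt6 and Wnt7b rose in KO surface ectoderm, 4 did not pass and 2 were below the filter. Over all genes 4.97% passed (593 of 11924), 306 higher and 287 lower. The median log2 difference of the 7 tested ligands was 1.08 beside 0.02 over all genes. The WT and KO ectoderm arrays did not overlap for 4 of the 7 ligands and for 19.2% of all genes. Wnt6 was kept only because of its KO ectoderm arrays, so that its place in these counts follows from the filter. In the fit without the filter, in which 2.11% of genes passed, Wnt6 passed as well (3.82, limma adjusted p = 4.4e-05).

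Wnt6, a ligand of the surface ectoderm and its appendages, was not detected on any array of the other 3 groups with its used probe. It read 4.67, 4.52 and 4.55 in WT ectoderm. In KO ectoderm it read 8.64, 8.0 and 8.57, far above every other array. The fitted log2 difference was 3.82 ± 0.28 (SE, n = 3 per group), with limma adjusted p = 1.9e-06, and the bound was at least 12.5-fold higher. All 3 Wnt6 probes moved in the same direction. The second read 8.58, 7.72 and 8.40 in KO ectoderm and was at least 11.1-fold higher (limma adjusted p = 6.8e-06). Like the used probe, it was kept through the 3 KO ectoderm arrays alone, and it was not fitted without the filter. The dimmest one read 6.14, 6.36 and 6.22 there and rose 3.13-fold (limma adjusted p = 0.0014); it was also detected on 1 WT ectoderm and 1 KO vesicle array. Within slide 1 the Wnt6 difference was 4.01 and within slide 2 it was 3.46.

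Wnt2, which signals through beta-catenin and is known from lung and vessel development, read 8.18, 8.37 and 8.52 in WT ectoderm. In KO ectoderm it read 9.86, 10.1 and 9.56. The ranges did not overlap, and the lowest KO array lay above the highest WT array. The log2 difference was 1.48 ± 0.32 (SE, n = 3 per group), a 2.79-fold rise with limma adjusted p = 0.014. Within the slides it was 1.43 and 1.57. The call was lost without WT ectoderm replicate 1 (limma adjusted p = 0.056) or KO ectoderm replicate 2 (limma adjusted p = 0.058), and in the authors' processed values, where it was 1.51 (limma adjusted p = 0.26).

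Wnt7b read 8.62, 8.50 and 9.03 in WT ectoderm and 10.1, 10.06 and 9.39 in KO ectoderm. KO replicate 3 was the lowest of its group and still lay above all WT arrays. The log2 difference was 1.13 ± 0.20 (SE, n = 3 per group), a 2.19-fold rise with limma adjusted p = 0.0033. Within the slides it was 1.19 and 1.03. The dimmer probe, detected on 1 KO ectoderm array, differed by 0.25 (limma adjusted p = 0.72), and the mean of both probes by 0.69 (limma adjusted p = 0.086). KO ectoderm arrays held Wnt7b at 9.39 to 10.1 and KO vesicle arrays at 11.78 to 12.15. Of the 5 pigment epithelium markers all but Mitf (9.02 in WT ectoderm, 8.72 in KO vesicle) were brightest in KO vesicle. In KO ectoderm 3 of the 5 rose, 0 fell and 2 did not pass. Otx2 rose by 2.25, and Dct and Pmel, on no WT ectoderm array, were at least 5.7-fold and 2.56-fold higher, while Tyrp1 was on no ectoderm array. Their sum, to which Mitf contributed most in WT, was 8.71 to 9.99 in WT and 9.42 to 10.25 in KO ectoderm. None of 4 retinal markers passed (0 by limma, 2 at an unadjusted p below 0.05); Lhx2 stood at 1.42 (limma adjusted p = 0.064) and Rax at 1.39 (limma adjusted p = 0.09). The part of captured vesicle tissue in the ectoderm's Wnt7b was not tested.

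Wnt5a read 7.66, 7.07 and 8.22 in WT and 8.97, 8.30 and 8.92 in KO ectoderm, with no overlap. The difference of 1.08 did not pass (limma adjusted p = 0.17), and it was 1.58 within slide 1 and 0.08 within slide 2. Wnt4 read 4.42, 5.04 and 4.50 in WT and 5.00, 4.98 and 5.69 in KO ectoderm, where it was detected on 3 of 3 arrays, against 1 of 3 in WT. Its difference was 0.57 (95% interval 0.04 to 1.10) and did not pass over all genes (limma adjusted p = 0.24). Wnt2b differed by 0.13 (95% interval -0.33 to 0.58) and Wnt5b by -0.04 (95% interval -0.79 to 0.70). Wnt3 was detected on KO ectoderm replicate 1 alone, and Wnt7a on replicate 1 of either genotype, at 4.92 in WT and 5.16 in KO.

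Of the 9 epidermal markers 3 rose in KO ectoderm, 0 fell and 6 did not pass. Perp rose by 3.27, Trp63 by 2.58 and Tfap2b by 1.49, while the sum over the 9, to which Cdh1 contributed most (12.52 in WT and 11.82 in KO), overlapped at 13.01 to 13.27 in WT and 12.89 to 13.22 in KO. Of 7 mesenchyme markers 5 rose, Col3a1, Twist1, Alx4, Prrx1 and Foxc2, and Pdgfra fell, with sums of 10.83 to 10.91 in WT and 11.72 to 11.77 in KO. Of 6 endothelial markers 4 rose, with sums of 7.22 to 7.63 in WT, where 4 were on no array, and 8.75 to 8.97 in KO. Of 5 lens placode markers 4 fell, with sums of 11.07 to 11.37 in WT and 9.03 to 9.09 in KO, where Pitx3, Foxe3 and Sox1 were on no array. Their part in the rise of Wnt2, Wnt6 and Wnt7b was not tested.

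**Figure D2:**
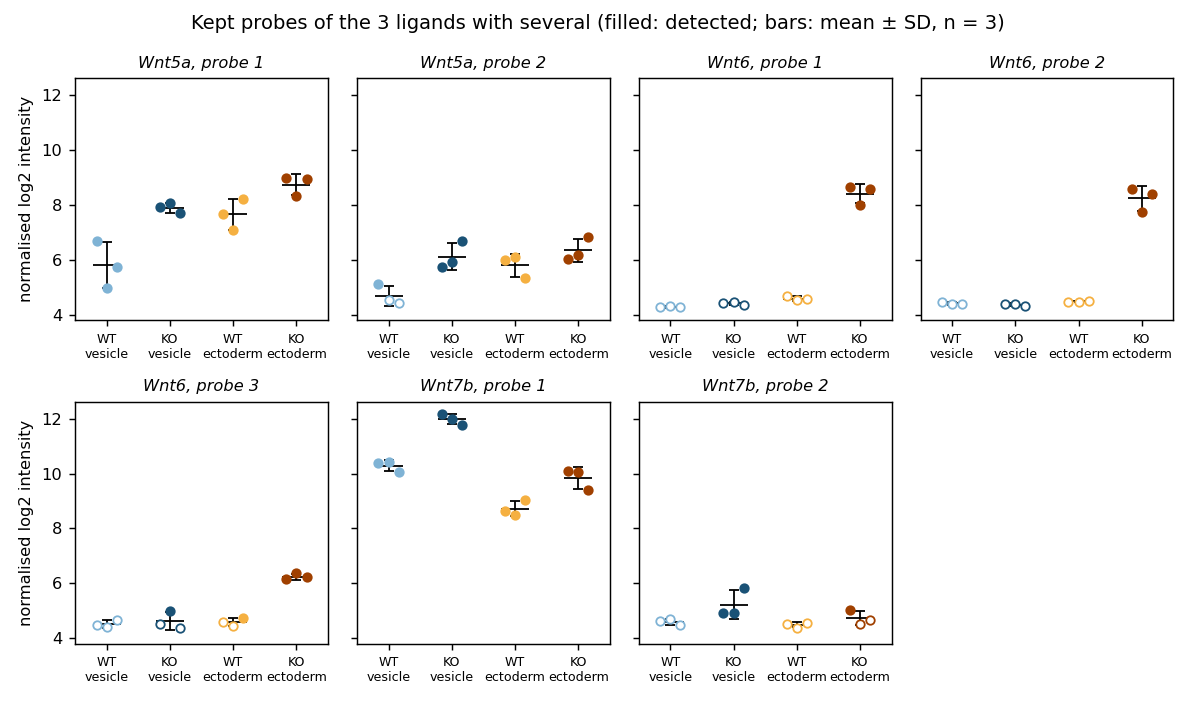
Normalised log2 intensity (vertical axis) of every kept probe of Wnt5a, Wnt6 and Wnt7b by array and group (horizontal axis); probe 1 is the used one, filled points are detected, and bars give mean ± SD of 3 arrays. All 3 Wnt6 probes are highest in KO surface ectoderm, and the dimmer probes of Wnt5a and Wnt7b lie near background in WT optic vesicle.

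The third question was whether the effect of the genotype differed between the tissues. Wnt6 was the only ligand that passed the test of this difference, in which 1.41% of all genes passed (168 of 11924). Its effect in optic vesicle was 0.12, with the used probe below detection in both genotypes, and 3.82 in surface ectoderm, and the difference was -3.70 ± 0.40 (SE, n = 3 per group) with limma adjusted p = 3e-04. Wnt6 was kept through the KO ectoderm arrays alone; in the fit without the filter, in which 0.582% of genes passed, it gave -3.70 with limma adjusted p = 0.0027. With the vesicle side below detection, this value has no measured vesicle effect in it and its size is not exact. The second Wnt6 probe gave -3.81 (limma adjusted p = 6e-04) and the dimmest -1.54 (limma adjusted p = 0.059). The second probe was likewise kept through the KO ectoderm arrays alone and was not fitted without the filter. Wnt2b had the next lowest p among the ligands, with an effect 1.09 higher in vesicle (95% interval 0.45 to 1.74, limma adjusted p = 0.10). Wnt2 stood at -1.07 (limma adjusted p = 0.32), Wnt5a at 1.02 (limma adjusted p = 0.51) and Wnt7b at 0.56 (95% interval -0.04 to 1.16, limma adjusted p = 0.43). The rises of Wnt2b and Wnt5a in vesicle and of Wnt2 in ectoderm were thus not shown to differ from the effect in the other tissue.

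**Figure D3:**
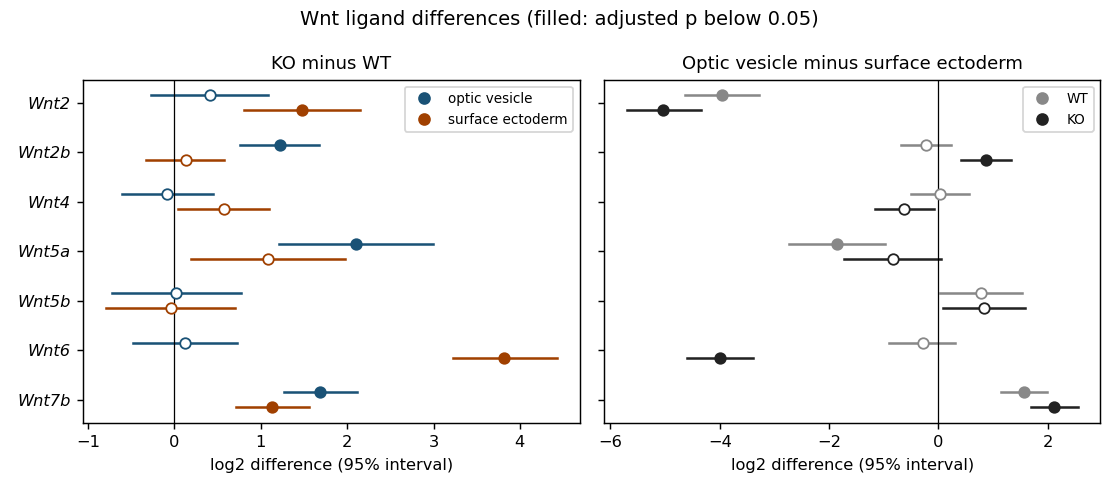
Log2 differences of the 7 tested ligands (horizontal axis) with 95% intervals from limma, KO minus WT in each tissue on the left and optic vesicle minus surface ectoderm in each genotype on the right; filled points passed at an adjusted p below 0.05. Wnt6 stands apart in surface ectoderm at 3.82, and Wnt2 and Wnt7b lie on opposite sides of 0 between the tissues.

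The tissues themselves were then compared within each genotype. In WT, Wnt7b was higher in optic vesicle, Wnt2 and Wnt5a were higher in surface ectoderm, and 8.38% of all genes passed (999 of 11924). In KO, Wnt7b and Wnt2b were higher in vesicle, Wnt2 and Wnt6 were higher in ectoderm, and 7.59% of all genes passed (905 of 11924). The ligands' median difference, vesicle minus ectoderm, was -0.22 in WT and -0.63 in KO, beside 0.05 and 0.01 over all genes. The tissues did not overlap for 5 of the 7 ligands in WT and 7 of 7 in KO, beside 27.7% and 23.1% of all genes. The 5 in WT include Wnt6, whose used probe was below detection in both WT tissues. Both comparisons share their arrays with those above.

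Wnt2 was at least 12.1-fold lower in WT vesicle than in WT ectoderm (fitted log2 difference -3.96 ± 0.32, SE, n = 3 per group, limma adjusted p = 1.3e-06). In KO the difference was -5.03 ± 0.32, or 32.6-fold lower, with 2 of 3 KO vesicle arrays detected (limma adjusted p = 4.9e-07). With the vesicle levels near background the sizes depended on the processing, from -7.27 to -2.11 in WT and from -5.96 to -3.21 in KO over the alternatives, all of which passed. Its order over the groups was KO ectoderm, WT ectoderm, KO vesicle and WT vesicle, with no overlap between neighbours. Wnt7b ran the other way, 2.96-fold higher in vesicle than in ectoderm in WT (limma adjusted p = 0.00012) and 4.36-fold in KO (limma adjusted p = 8e-06). In its order, WT vesicle at 10.05 to 10.41 and KO ectoderm at 9.39 to 10.1 overlapped.

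Wnt5a was 3.62-fold lower in WT vesicle than in WT ectoderm (log2 -1.85 ± 0.41, limma adjusted p = 0.011). This call was lost without WT vesicle replicate 2 (limma adjusted p = 0.056), without WT ectoderm replicate 3 (limma adjusted p = 0.053) and in a fit of these 2 groups alone (limma adjusted p = 0.053). The difference was -0.70 within slide 1 and -2.86 within slide 2. In KO it was -0.83 and did not pass (limma adjusted p = 0.29), and KO vesicle overlapped WT ectoderm. Wnt6 was at least 12.8-fold lower in KO vesicle than in KO ectoderm (limma adjusted p = 1.2e-06). It was kept through the KO ectoderm arrays alone, so its place among the ligands called between KO tissues follows from the filter. In the fit without the filter, in which 3.81% of genes passed, Wnt6 gave -4 (limma adjusted p = 1.3e-05). Wnt2b was higher in KO vesicle (log2 0.87 ± 0.21, limma adjusted p = 0.021). It too was kept only because its KO vesicle arrays were detected, and without the filter it gave 0.87 (limma adjusted p = 0.013). Only 1 of 3 KO ectoderm arrays was detected, so the size depends on the background level, and it ran from 0.29 to 2.26 over the alternatives. This passed in 16 of 23 alternatives (limma adjusted p from 0.013 to 0.32). It was lost with genotype and replicate number together as a block (limma adjusted p = 0.055), in a fit of these 2 groups alone (limma adjusted p = 0.10) and in the authors' processed values (limma adjusted p = 0.32). It was also lost without KO vesicle replicate 2 or 3 (limma adjusted p = 0.054 and 0.057) and without KO ectoderm replicate 1 or 2 (limma adjusted p = 0.075 and 0.065). Wnt5b stood 0.77 higher in WT vesicle and 0.84 in KO vesicle, without overlap in either genotype, and passed in neither (limma adjusted p = 0.22 and 0.19). Its 2 vesicle groups overlapped each other, as did its 2 ectoderm groups.

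Of the 10 other Wnt genes of the mouse, with 16 probes, Wnt9b was the only one kept. It is an ectodermal ligand known from facial and kidney development. Its used probe rose in KO ectoderm from a mean of 5.17 ± 0.19 to 6.20 ± 0.23 (SD, n = 3 each), or 2.04-fold (limma adjusted p = 0.038), and a second probe by 1.3 in the fit of single probes (limma adjusted p = 0.021), in which the used probe did not pass (limma adjusted p = 0.061). In KO vesicle it was lower than in KO ectoderm, with a log2 difference of -1.60 (limma adjusted p = 0.0013).

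The genes whose level ran most like that of each ligand were taken by Pearson's r over the 12 arrays, which share their 4 groups, so that r largely follows the group means. Nearest to Wnt2 were Tfap2b, an AP-2 transcription factor of the surface ectoderm (r = 0.993), Adamts18 (0.984) and Barx2 (0.982). Nearest to Wnt6 were Lrrc15 (0.991), F3, which encodes tissue factor (0.988), and Osr2 (0.987). Nearest to Wnt7b were Uap1l1 (0.965) and the pigment epithelium genes Otx2 (0.952) and Pmel (0.95). Nearest to Wnt5a were Irs1, an adaptor of insulin signalling (0.934), Pdgfa, a growth factor (0.922), and Robo1, a guidance receptor (0.907). Nearest to Wnt2b were Pacsin1 (0.923), Trim54 (0.906) and Bhlha15 (0.902).

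The other genes of the pathway were read from 7 lists. Of 8 measured genes of Wnt secretion and carriage, Sulf1, a heparan sulfate endosulfatase, rose in KO vesicle by 1.16, 0 fell and 7 did not pass (median -0.06). None passed in ectoderm (0 of 8 by limma, 3 at an unadjusted p below 0.05, median 0.44). Wls, the carrier that takes Wnt proteins to the cell surface, stood at 1.31 in vesicle and 1.05 in ectoderm without passing. In WT it was lower in vesicle than in ectoderm, with a log2 difference of -2.15 (limma adjusted p = 0.038). The glypican Gpc3 was lower in vesicle in both genotypes, with log2 differences of -0.85 in WT and -1.42 in KO.

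Of 17 receptors and coreceptors none passed in KO vesicle (0 by limma, 4 at an unadjusted p below 0.05, median 0.02). In KO ectoderm Adgra2, a coreceptor for Wnt7a and Wnt7b known from brain vessels, rose from 6.18 ± 0.13 to 8.62 ± 0.38 (SD, n = 3 each, limma adjusted p = 0.0015). In the same ectoderm arrays the endothelial markers were higher, as given above, and their part in it was not tested. Ror1, a receptor tyrosine kinase, was on every WT and no KO array there and was at least 1.83-fold lower (limma adjusted p = 0.028), and 15 receptors did not pass (median 0.10). Fzd5, a Frizzled of the eye field, was higher in vesicle than in ectoderm, by 2.53 in WT and 2.69 in KO. Of 5 R-spondin and R-spondin receptor genes Rspo1, which potentiates Wnt signalling, rose in KO ectoderm from 4.78 ± 0.30 to 6.95 ± 0.52 (SD, n = 3 each, limma adjusted p = 0.0011), 0 fell and 4 did not pass (median -0.04). In KO vesicle 0 of the 5 passed by limma, with 1 at an unadjusted p below 0.05.

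Of 8 secreted inhibitors, Sfrp1 rose in KO vesicle by 0.94 (limma adjusted p = 0.049), Dkk3 and Sfrp2 fell by 1.69 and by 0.92, and 5 did not pass (median 0.15). In KO ectoderm Sostdc1, an inhibitor of Wnt and BMP signals, rose by 1.53 from 8.49 ± 0.43 to 10.02 ± 0.02 (SD, n = 3 each), Sfrp2 and Dkk3 fell by 0.98 and by 0.83, and 5 did not pass (median 0.04). Sostdc1 was lower in vesicle than in ectoderm in both genotypes, at least 13.3-fold in WT, where it was on no vesicle array, and with a log2 difference of -4.17 in KO. Sfrp1 was the only gene of the 7 lists that passed the test of a different genotype effect in the tissues (1.53 higher in vesicle, limma adjusted p = 0.026).

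Of 11 beta-catenin target and feedback genes, 4 rose in KO ectoderm, 1 fell and 6 did not pass, with a median of 0.52 beside 0.02 over all genes. Over all genes 2.57% passed as higher and 2.41% as lower there. Axin2, a feedback inhibitor, rose from 4.74 ± 0.33 (1 of 3 WT arrays detected) to 7.24 ± 0.47 (SD, n = 3 each, limma adjusted p = 0.001). Lef1, a nuclear partner of beta-catenin, rose by 1.82 and Znrf3, which removes Frizzled from the membrane, by 1.55. Nkd2, on no WT ectoderm array, was at least 2.66-fold higher. Ccnd1, the cyclin D1 gene, fell by 1.18. Markers of other cell types also differed in these ectoderm arrays, as given above, and their part in these differences was not tested. In KO vesicle Sp5, a transcription factor induced by Wnt signals, rose by 2.10 (limma adjusted p = 0.02, 1 of 3 WT arrays detected), Ccnd1 fell by 0.86 and 9 did not pass (median 0.26). Axin2 there stood at 0.61 and Lef1 at 0.26 without passing.

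Of 12 transducers of beta-catenin signalling none passed in vesicle (0 by limma, 1 at an unadjusted p below 0.05, median -0.05) or in ectoderm (0 by limma and 0 at an unadjusted p below 0.05, median -0.07). Of 9 planar polarity and noncanonical genes none passed in vesicle (0 by limma, 2 at an unadjusted p below 0.05, median -0.29), and in ectoderm Daam1, a formin, fell by 0.70 with 8 not passing (median 0.13). The lists were chosen with results of these arrays known, so their counts are descriptions.

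**Figure D4:**
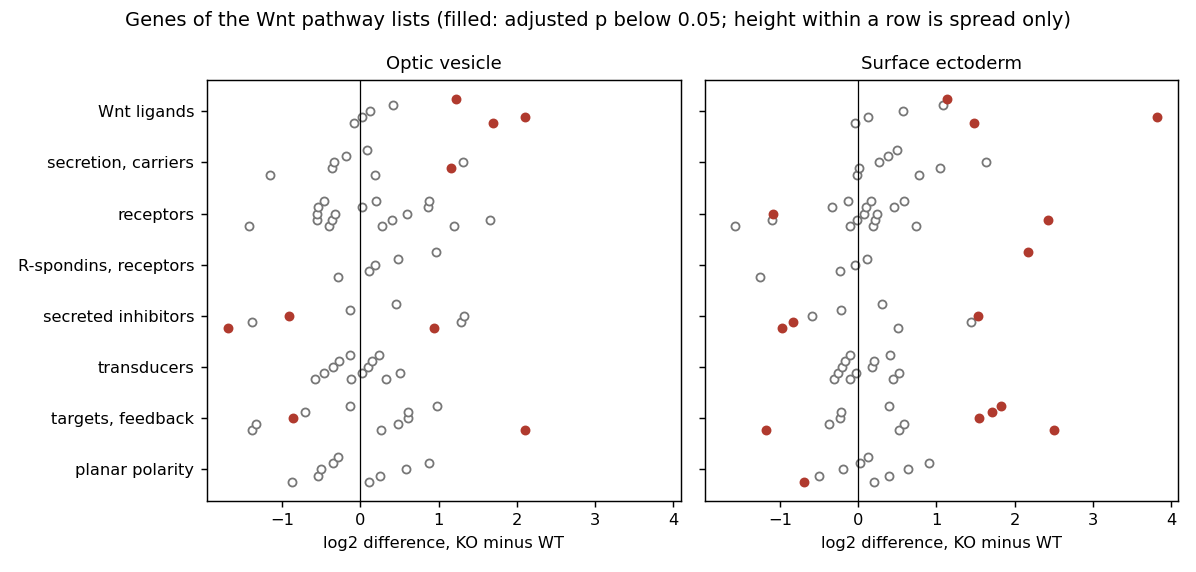
Log2 differences, KO minus WT (horizontal axis), of each measured gene of the Wnt pathway lists (rows) in optic vesicle and surface ectoderm; filled points passed at an adjusted p below 0.05, and height within a row only separates points. The ligand with the largest difference is Wnt6 in surface ectoderm at 3.82, and 4 target and feedback genes rose and 1 fell there, while no transducer passed in either tissue.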

How the data were processed

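Eye tissue from 12 mouse samples was measured on Illumina bead arrays. The authors' deposited scanner table holds, for each probe and array, an intensity (the mean over its beads, linear scale), the standard error of that intensity, a bead count (other unit) and a detection p-value, per the file headers. The intensity is not normalised between arrays. GenomeStudio is named in the submitters' processing notes with no version. The authors also deposited processed intensity values on a linear scale that reach below 0, with unstated background and centring; their columns ranked probes like the scanner values of the same array (Spearman 1), so their direction is the same, and their column medians are all close to 9.41. They served as an alternative, floored at 1 before log2. Arrays hold 2 slides, and slide was tried as a block.

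Normalisation used the neqc function (limma 3.58.1, R 4.3.3) with an offset of 16, quantile scaling and log2. Probes detected on at least 3 of 12 arrays were kept. Each of 11924 genes was represented by its brightest kept probe, named from the platform annotation (34885 probes with 1 symbol, 18 with several, 10378 with none). All 12 arrays entered 1 group-means model (lmFit, eBayes with trend), two-sided, Benjamini-Hochberg adjusted over all genes, threshold 0.05, with 95% intervals; single probes were fitted the same way. No block was used: residuals of samples sharing a replicate number correlated between -0.04 and 0.02. The pipeline was tested on simulated data. Gene names matched the RefSeq table of GRCm38.p6 for 34807 probes, and promoter windows were given for 7 of the 9 ligands. The number of arrays limits the precision. The members, gene lists and the rule for named genes were chosen with earlier results of these data known; the rule takes the 9 ligands, other Wnt genes, the 3 nearest genes by correlation for ligands that passed, and list genes that passed.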

Additional observations from a re-analysis of the deposited data

Results flagged for a closer look

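The genotype effect on Wnt6 differed between the tissues. The log2 difference of the effects, optic vesicle minus surface ectoderm, was -3.70 (limma adjusted p = 3e-04, n = 3 arrays per group), and the used probe was detected on all 3 KO ectoderm arrays and on no other array. It passed in 21 of 22 alternatives in which Wnt6 was tested, with a range of -4.47 to -1.95. Wnt6 was kept by the filter through those KO ectoderm arrays alone. Without the filter it gave limma adjusted p = 0.0027. The effect in vesicle (0.12) lies between groups below detection, so the size of the difference rests on the ectoderm and on the background level.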

How the results depend on the processing

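No call of a ligand reversed. The number of ligands called stayed within 1.5 times in each comparison except as follows. With the authors' processed values 0 ligands passed the test of a different genotype effect (limma; 2 of 7 at an unadjusted p below 0.05), with Wnt6 at -4.47 (limma adjusted p = 0.10), and Wnt6 became lower in WT vesicle than in WT ectoderm (-2.88, limma adjusted p = 0.041), where its scanner values were below detection. With detection required on at least 6 arrays, Wnt6, Wnt2b and Wnt4 were no longer tested, so 2 ligands (Wnt2 and Wnt7b) passed between the KO tissues and 0 passed the difference of effects (limma; 1 of 4 at an unadjusted p below 0.05). Leaving out each array in turn gave 2 to 3 ligands in vesicle, 2 to 3 in ectoderm, 2 to 3 between WT tissues, 3 to 4 between KO tissues and 1 to 1 for the difference of effects. The replicate block was replicate number for KO against WT, and genotype with replicate number for the other comparisons. With it 3 ligands passed between KO tissues in place of 4 (Wnt2b, 0.87, limma adjusted p = 0.055), and no other call of a ligand changed. The replicate numbers gave no sign of pairing. Slide as a block changed no call of a ligand. Over all alternatives Wnt7b in vesicle ran from 1.16 to 1.79, Wnt6 in ectoderm from 2.04 to 5.45 and Wnt2b in vesicle from 0.47 to 5.07, passing in 24 of 24, 23 of 23 and 23 of 23. The count of all genes ran from 117 to 412 in vesicle, 240 to 637 in ectoderm, 612 to 1146 between WT tissues, 613 to 943 between KO tissues and 89 to 192 for the difference of effects. Median scaling moved the median of all genes between WT tissues to 0.126; the 3 ligand calls there were the same. Signal near background limits Wnt2b, Wnt4, Wnt3, Wnt7a, Wnt2 in vesicle and Wnt6 outside KO ectoderm: sizes of their differences depend on the background correction.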
